A study of Mus musculus with 12 samples.

Results

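The genes described here lie on the distal part of mouse chromosome 6, beyond 80 Mb on GRCm38. A list of 48 genes was chosen by position and selected on earlier results from these libraries, in which transcripts of the region were raised in some GSCLC lines relative to the mean of the GSC lines. Shifts of a GSCLC line from the GSC lines are therefore given as a description. Of the 48 listed genes, 47 had a mean of at least 5 RPM over the 12 libraries and were used, out of 26219 genes in the table and 710 genes beyond 80 Mb. Mxd1, a partner of MAX that opposes MYC, was the 1 gene outside that limit at 3.02 RPM, and Mbd4, a DNA glycosylase, was the lowest gene inside it at 13.5 RPM. All further values concern the 47 genes, which span 81.96 to 146.64 Mb.

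The libraries came from 6 mouse cell lines with 2 culture replicates each. GSCLC_1 and GSCLC_4 are germline stem cell-like cells from reconstituted testes kept at 34°C for 3 weeks (condition 1). GSCLC_2 and GSCLC_3 are germline stem cell-like cells from reconstituted testes kept at 37°C for 2 weeks and at 34°C for the next 1 week (condition 2). GSC_1 and GSC_2 are germline stem cells, that is, spermatogonial stem cells expanded in culture, each from a separate testis at postnatal day 7. Every line had the background C57BL/6 x 129/SvJcl, carried the AcrAct_EGFP reporter and grew in the same StemPro-34 medium with GDNF, bFGF, LIF and EGF. Each line stands for 1 derivation, and the 2 libraries of a line show the spread between cultures of that line, not between derivations. Levels are in RPM, reads from the 3′ ends of mRNA scaled to one common total per library, made by SC3-seq from 1 ng of total RNA, and a shift is the mean log2(RPM + 1) of a line minus the mean of the 2 GSC lines. In bulk libraries of this kind, fewer cells of a type and less RNA per cell cannot be told apart.

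Genes that lie side by side on a chromosome are often raised or lowered together when the number of copies of that stretch of DNA differs between cells, because the level of most transcripts follows the number of templates. Some genes depart from that proportion, since the level of a transcript also depends on feedback and on the factors that act on its promoter. DNA copy number was not measured here. The ratio of 3 to 2 copies, 1.5-fold or 0.58 on the log2 scale, serves as a yardstick of size, and a gene is counted as raised in a dosage-like way where its shift lies above 0.29, nearer to 1.5-fold than to no change.

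RPM steps implied between 3031696 and 4644174 counted reads per library, and the smallest level of any of the 47 genes in a library, that of Dera in GSCLC_3 replicate 2, came to 21 reads. Pearson's r across 11788 tested genes was 0.966 to 0.977 between the libraries of a line and 0.925 to 0.971 between libraries of different lines. All 8 listed germ cell markers, such as Ddx4 and Dazl, were present at 5 RPM or more in every line, with summed levels of 2472 to 3083 RPM in the 12 libraries. The 12 somatic testis markers summed to 195 to 347 RPM in the GSCLC libraries, 247 to 380 RPM in GSC_1 and 600 to 610 RPM in GSC_2. Of these 12 markers only Amh, a Sertoli cell product, was at 0 in all 12 libraries. Wt1, a transcription factor of Sertoli cells, stood at 7.70 and 6.15 RPM in GSCLC_1, 29.8 and 20.1 in GSCLC_2, 4.81 and 2.97 in GSCLC_3 and 10.8 and 17.2 in GSCLC_4, against 5.22, 4.52, 1.97 and 1.28 RPM in the GSC libraries, so it was highest in GSCLC_2 and GSCLC_4. Cyp11a1, the first enzyme of steroid synthesis, stood between 0 and 0.751 RPM in the GSCLC libraries, against 36.2 and 3.23 in GSC_1 and 60.1 and 2.30 in GSC_2. Sox9, another listed Sertoli cell gene, did not follow Wt1. It stood at 2.01 and 2.87 RPM in GSCLC_2 and at 2.25 and 1.32 in GSCLC_4. The GSC libraries held 4.56, 7.11, 2.95 and 2.04 RPM of Sox9. The part of these somatic transcripts in the shifts was not tested.

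The region as a whole was raised in GSCLC_2 and in GSCLC_4. Genes beyond 80 Mb took 2.94% and 2.99% of all RPM in the libraries of GSCLC_1, 3.98% and 4.03% in GSCLC_2, 2.81% and 2.80% in GSCLC_3 and 3.88% and 3.98% in GSCLC_4, against 2.89%, 2.92%, 3.01% and 2.99% in the GSC libraries. The 4 libraries of GSCLC_2 and GSCLC_4 stood above the other 8 without overlap. The region was selected on this rise, so the separation is a description only. The median shift of the 47 genes was 0.01 in GSCLC_1, 0.54 in GSCLC_2, -0.10 in GSCLC_3 and 0.53 in GSCLC_4, so that the median gene was 1.45-fold higher in GSCLC_2 and 1.44-fold higher in GSCLC_4 than in the GSC lines. The median shift of all tested genes was -0.0019 in GSCLC_1, -0.0041 in GSCLC_2, -0.07 in GSCLC_3 and 0.06 in GSCLC_4. Quartiles of the 47 shifts ran from 0.41 to 0.66 in GSCLC_2 and from 0.30 to 0.68 in GSCLC_4.

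Gene by gene, the shift lay above the mark of 0.29 for 5 of 47 genes in GSCLC_1, where 19.7% of all tested genes did. It lay above the mark for 42 of 47 in GSCLC_2, beside 21.8% of all tested genes, for 3 of 47 in GSCLC_3, beside 18.6%, and for 35 of 47 in GSCLC_4, beside 29.1%. Both libraries of the line stood above all 4 GSC libraries for 9 genes in GSCLC_1 (15.3% of all tested genes), 41 in GSCLC_2 (16.8%), 6 in GSCLC_3 (13.9%) and 37 in GSCLC_4 (22.2%). The list was selected on these contrasts, so nothing is read from the counts beyond which genes they hold. Without GSC_2 replicate 2, 9 genes lay above the mark in GSCLC_1 and 5 in GSCLC_3, which had 6 without GSC_1 replicate 1 and 5 without either of its own libraries.

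**Figure D1:**
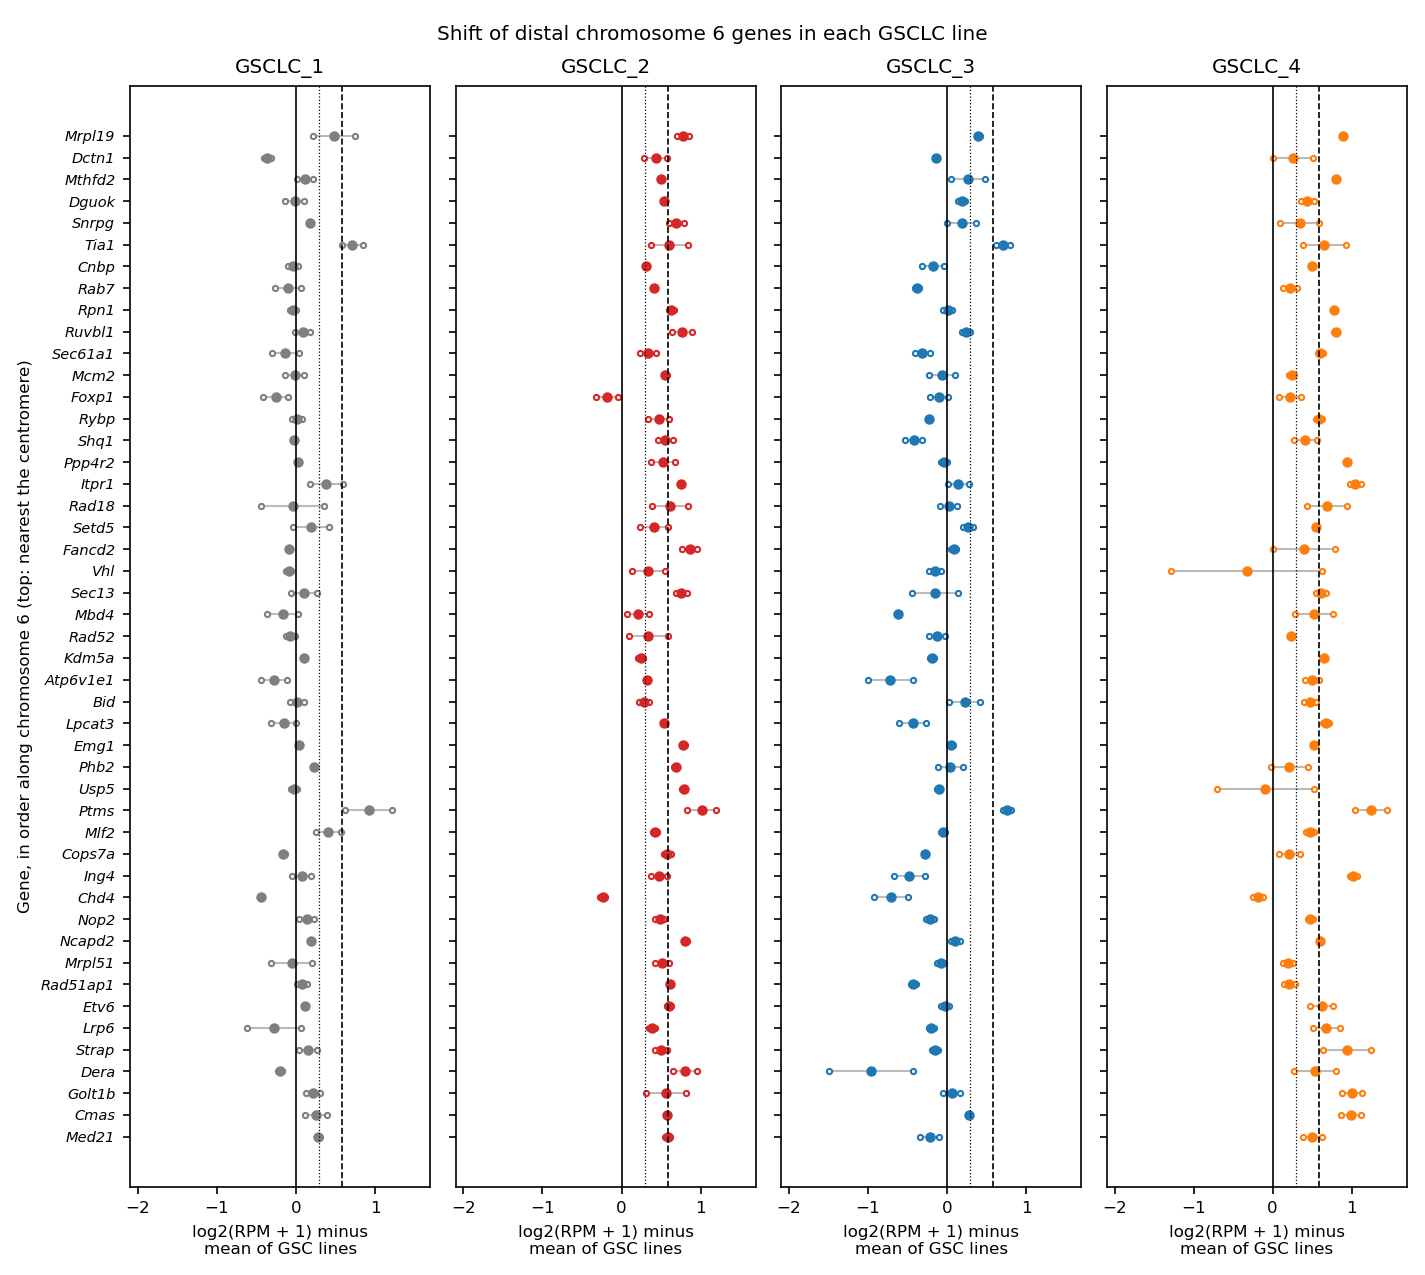
Shift in log2(RPM + 1) of each of the 47 genes from the mean of the GSC lines, in 4 panels for GSCLC_1 to GSCLC_4, with genes in chromosomal order. Open points are the 2 libraries of a line and the filled point their mean; the solid line marks no change, the dotted line 0.29 and the dashed line 1.5-fold. Most points of GSCLC_2 and GSCLC_4 lie near the dashed line, with Chd4 left of 0 in both, while those of GSCLC_1 and GSCLC_3 scatter around 0.

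By limma on single libraries, 1 of the 47 genes was higher (3.31% of tested genes) and 1 lower (3.63%) in GSCLC_1 than in the GSC lines. In GSCLC_2, 29 were higher (5.47%) and 0 lower (6.26%), and in GSCLC_3, 2 were higher (5.17%) and 4 lower (9.09%). GSCLC_4 had 25 higher (9.65%) and 0 lower (6.4%), at a Benjamini-Hochberg adjusted p of 0.05. The unadjusted p was under 0.05 for 38 genes in GSCLC_2 and for 32 in GSCLC_4. Since the list was selected on the same contrasts, these counts are a description only. The count in GSCLC_2 depended on single libraries and on the line GSC_2, at 12 without that line, 8 without GSCLC_2 replicate 1, 9 without GSCLC_2 replicate 2 and 18 without GSC_2 replicate 1. Calls over all tested genes fell with it, to 345, 168, 240 and 495 in the same order, against 645 with all libraries. Where a line keeps 1 library, it is assumed to vary like the other lines. The small counts in GSCLC_1 and GSCLC_3 went to 0 without GSC_1 replicate 1 or without GSC_2 replicate 2. That in GSCLC_1 also went to 0 without GSCLC_1 replicate 2, and to 2 without either GSCLC_4 library. That in GSCLC_3 also went to 0 without either GSCLC_3 library, and to 1 without GSC_1 replicate 2, GSC_2 replicate 1 or either GSCLC_1 library.

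The rise in GSCLC_2 covered the distal part of the chromosome and not the proximal part. In GSCLC_4 it was larger in the distal part than in the proximal part. In 10 Mb windows of chromosome 6 before 80 Mb, medians ran from -0.07 to 0.115 in GSCLC_2 and from -0.08 to 0.29 in GSCLC_4, and in the windows from 80 Mb on they ran from 0.44 to 0.55 in GSCLC_2 and from 0.48 to 0.64 in GSCLC_4. The 17 tested genes between 72 and 74 Mb had medians of -0.14 in GSCLC_2 and -0.02 in GSCLC_4. The 27 tested genes between 82 and 84 Mb had medians of 0.43 in GSCLC_2 and 0.51 in GSCLC_4. In the gap between these windows, 74 to 82 Mb, lay only 2 tested genes, Gm20594 and Mrpl19. The 226 tested genes before 80 Mb had a median shift of 0.05 in GSCLC_2 and 0.17 in GSCLC_4. In GSCLC_4 that proximal median was above those of all other chromosomes but the X at 0.21. The next was chromosome 18 at 0.14, and all tested genes outside chromosome 6 had a median of 0.05.

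**Figure D2:**
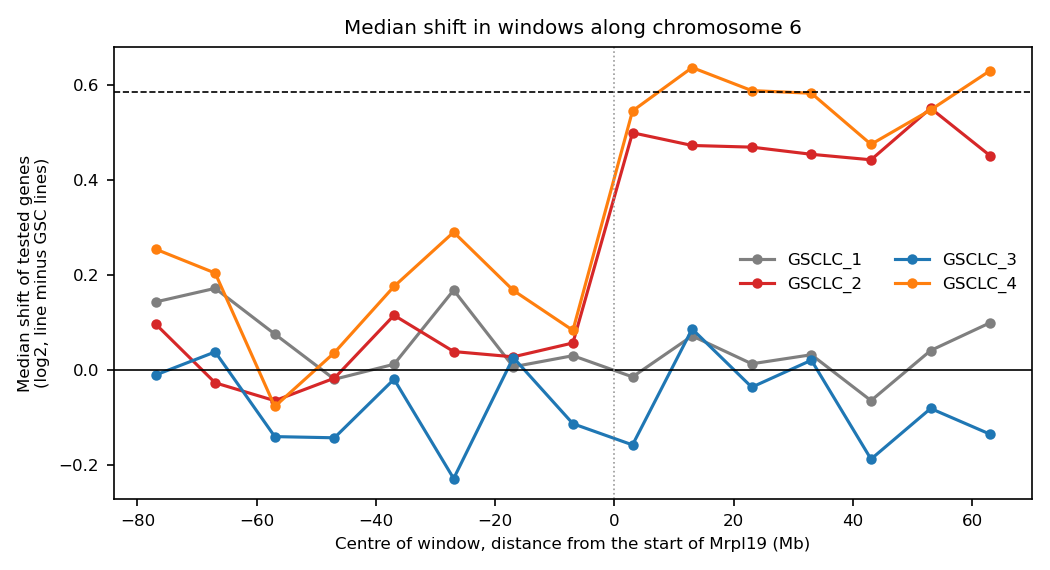
Median shift of all tested genes in 10 Mb windows along chromosome 6 for each GSCLC line, against the distance of the window's centre from the start of Mrpl19, the first of the listed genes. The dashed line marks 1.5-fold and the dotted line the start of Mrpl19; right of it GSCLC_2 and GSCLC_4 lie between 0.44 and 0.64, and GSCLC_1 and GSCLC_3 stay between -0.19 and 0.10.

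The 267 other tested genes beyond 80 Mb moved by a like amount, with median shifts of -0.01 in GSCLC_1, 0.44 in GSCLC_2, -0.10 in GSCLC_3 and 0.56 in GSCLC_4. Of these 267 genes, 61 lay above the mark in GSCLC_1, 182 in GSCLC_2, 47 in GSCLC_3 and 186 in GSCLC_4. Across the 19 other chromosomes analysed, the chromosome's median shift ran from -0.07 to 0.10 in GSCLC_2 and from -0.02 to 0.21 in GSCLC_4, with the X chromosome highest in both. In GSCLC_3, chromosome 8 stood at 0.41 and the next chromosome at -0.02.

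**Figure D3:**
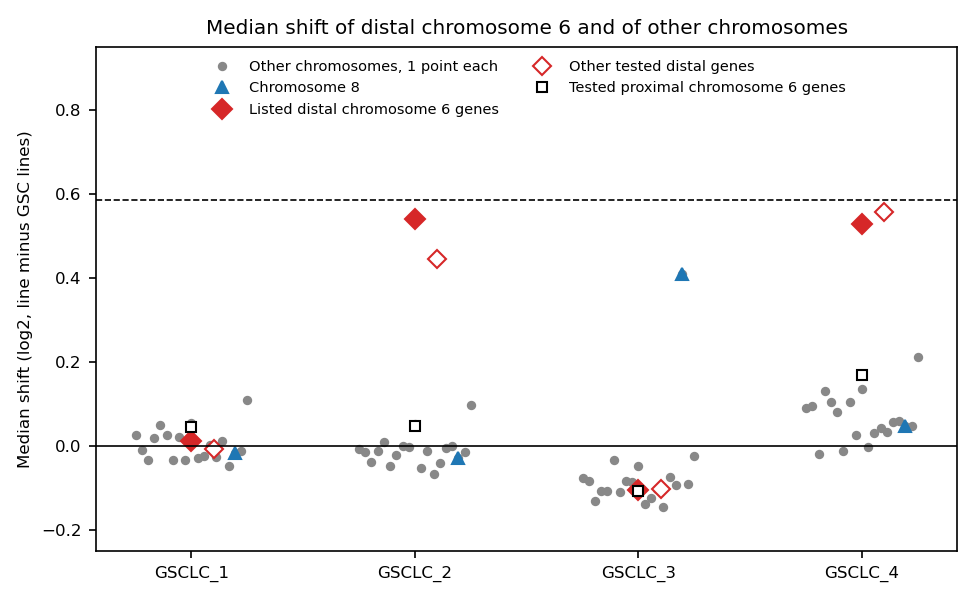
Median shift from the GSC lines of the listed distal chromosome 6 genes (filled diamonds), the other tested distal genes (open diamonds), the tested proximal genes of chromosome 6 (open squares) and each other chromosome (grey points, chromosome 8 as a triangle), for each GSCLC line. The dashed line marks 1.5-fold; the diamonds stand above every other chromosome in GSCLC_2, at 0.54 and 0.44, and in GSCLC_4, at 0.53 and 0.56, and among the other chromosomes in GSCLC_1 and GSCLC_3.

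The contrasts between the conditions and between GSC_2 and GSC_1 gave no call among the 47 genes. The list was not selected on the contrast between GSC_2 and GSC_1. Between condition 2 and condition 1 of the reconstituted testes, with the line as the unit, limma called 0 of the 47 genes and 0% of all tested genes. The smallest adjusted p was 0.933, and 0 of the 47 genes reached an unadjusted p under 0.05. Each condition held 1 line with the raised region and 1 without. The rise thus falls on both sides of this contrast, which is built from the same shifts, so its 0 is no independent check. Between GSC_2 and GSC_1, 0 of the 47 genes were called (0.0509% of tested genes), with 2 at an unadjusted p under 0.05. The extremes were Rad51ap1, an accessory factor of homologous recombination, at -0.45 ± 0.19 (SE, limma adjusted p = 0.67), and Vhl at 0.36 ± 0.38 (limma adjusted p = 0.951).

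GSCLC_4 and GSCLC_2 did not differ at the threshold for any of the 47 genes, beside 0.56% of tested genes called in either direction. The smallest limma adjusted p was 0.118 and 11 genes had an unadjusted p under 0.05. Without GSCLC_4 replicate 2, some of the 47 genes were called, and calls over all tested genes rose as well. The lowest difference of GSCLC_4 from GSCLC_2 was that of Usp5, at -0.88 ± 0.26 (SE, limma adjusted p = 0.118), and the highest that of Ing4, at 0.55 ± 0.20 (limma adjusted p = 0.194). A p that misses the threshold does not show that the 2 lines are alike.

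The other pairs of GSCLC lines follow from the same shifts and were compared with limma on single libraries after the values had been seen. The list was selected on those shifts, so the counts are a description only. GSCLC_2 was higher than GSCLC_1 for 7 of the 47 genes (1.21% of tested genes called in either direction), and GSCLC_4 was higher than GSCLC_1 for 13 (2.45%). GSCLC_3 was lower than GSCLC_2 for 25 (5.71%), GSCLC_4 was higher than GSCLC_3 for 29 (11.4%), and GSCLC_3 and GSCLC_1 differed for 0 (1.37%), with 8 at an unadjusted p under 0.05. For each left-out library given next, calls over all tested genes fell too. The count of GSCLC_2 over GSCLC_1 was 0 without GSCLC_1 replicate 1 or without GSCLC_2 replicate 1, 1 without GSCLC_1 replicate 2 and 2 without GSCLC_2 replicate 2. That of GSCLC_4 over GSCLC_1 was 1 without GSCLC_1 replicate 1, 5 without GSCLC_1 replicate 2 and 3 without GSCLC_4 replicate 1. The count of GSCLC_3 under GSCLC_2 was 11 without either GSCLC_2 library and 13 without GSCLC_3 replicate 2. That of GSCLC_4 over GSCLC_3 was 18 without GSCLC_3 replicate 1, 15 without GSCLC_3 replicate 2 and 17 without GSCLC_4 replicate 1.

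Over all 4 GSCLC lines, with the line as the unit, 1 of the 47 genes was higher than in the GSC lines (1.21% of tested genes) and 0 were lower (1.81%). That gene was Ptms, which encodes parathymosin, an acidic nuclear protein, at a log2 difference of 0.99 ± 0.19 (SE, 4 against 2 lines). The list was selected on the shifts that this contrast averages, so the count and the call are a description only. Ptms stood at 32.8 and 50.4 RPM in GSCLC_1, 49.6 and 38.1 in GSCLC_2, 35.1 and 37.7 in GSCLC_3 and 59.1 and 44.5 in GSCLC_4, against 15.3 and 23.0 in GSC_1 and 25.1 and 21.9 in GSC_2. All 8 GSCLC libraries were above all 4 GSC libraries, so its rise was not limited to the lines with a raised region. The call was lost without the line GSC_1, without the line GSC_2 and with no filter on the genes tested. In each of these settings, calls over all tested genes fell too. Without the line GSC_1 or GSC_2, only 1 GSC line was left for the contrast.

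Mrpl19 and Tia1 were the other 2 genes above the mark in all 4 GSCLC lines. Mrpl19, a protein of the large subunit of the mitochondrial ribosome, stood at 65.3 and 44.9 RPM in GSCLC_1, 63.4 and 71.0 in GSCLC_2, 50.6 and 51.8 in GSCLC_3 and 73.1 and 71.6 in GSCLC_4, against 39.8, 34.0, 39.6 and 41.6 RPM in the GSC libraries. Tia1, an RNA-binding protein of stress granules, stood at 21.7 and 26.2 RPM in GSCLC_1, 18.6 and 26.1 in GSCLC_2, 22.3 and 25.3 in GSCLC_3 and 18.8 and 27.7 in GSCLC_4, against 13.7, 12.9, 14.8 and 15.3 RPM in the GSC libraries. In both genes every GSCLC library lay above every GSC library. The levels of Tia1 did not separate the lines with the raised region from the others, with shifts of 0.72, 0.60, 0.71 and 0.65 in GSCLC_1 to GSCLC_4.

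Escape from the rise was counted in GSCLC_2 and GSCLC_4. Of the 47 genes, 32 lay above the mark in both lines, 10 only in GSCLC_2, 3 only in GSCLC_4 and 2 in neither. In all 4 libraries of these lines taken singly, 26 genes lay above the mark. Over the 19 other settings and left-out libraries tried, between 29 and 36 genes lay above the mark in both lines and between 1 and 4 in neither. The list was selected on its rise, so these counts do not give the share of escape in the region. In GSCLC_2, 89.4% of the 47 genes lay above the mark, beside 68.2% of the 267 other tested genes beyond 80 Mb. In GSCLC_4 the shares were 74.5% and 69.7%.

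Chd4, the ATPase of the NuRD chromatin remodelling complex (gene 107932, chromosome 6 at 125095980 to 125130591 on GRCm38), was the 1 gene that lay below the mark in both lines under every setting. Its levels were 419 and 421 RPM in GSCLC_1, 473 and 493 in GSCLC_2, 403 and 299 in GSCLC_3 and 478 and 521 in GSCLC_4, against 604 and 590 in GSC_1 and 528 and 560 in GSC_2. All 8 GSCLC libraries were below all 4 GSC libraries. Its shifts were -0.44 in GSCLC_1, -0.24 in GSCLC_2, -0.71 in GSCLC_3 and -0.19 in GSCLC_4. Within the GSCLC lines, Chd4 was higher in GSCLC_2 and GSCLC_4 than in GSCLC_1 and GSCLC_3. It was 0.52 ± 0.14 higher in GSCLC_4 than in GSCLC_3 (SE) and 0.47 ± 0.14 lower in GSCLC_3 than in GSCLC_2. Against GSCLC_1 it was 0.20 ± 0.14 higher in GSCLC_2 (limma adjusted p = 0.625) and 0.25 ± 0.14 higher in GSCLC_4 (limma adjusted p = 0.361).

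The promoters of Chd4 and of its neighbour Nop2, an rRNA methyltransferase gene just downstream on the same strand, are shown because the first gene did not lie above the mark and the second did. They cover 300 bases around each start, most of them upstream, credited to RefSeq on GRCm38.p6, at chr6:125095731-125096030 and chr6:125131633-125131932, both on the plus strand. Capitals mark matches on either strand. The GC box bound by SP1-family factors was searched as GGGCGG. The site of ETS-family factors, which are common at promoters of housekeeping genes, was searched as CCGGAAG, next to the CCAAT box of NF-Y and the TATA box of TFIID by name, the last of these as TATAAA.
Chd4: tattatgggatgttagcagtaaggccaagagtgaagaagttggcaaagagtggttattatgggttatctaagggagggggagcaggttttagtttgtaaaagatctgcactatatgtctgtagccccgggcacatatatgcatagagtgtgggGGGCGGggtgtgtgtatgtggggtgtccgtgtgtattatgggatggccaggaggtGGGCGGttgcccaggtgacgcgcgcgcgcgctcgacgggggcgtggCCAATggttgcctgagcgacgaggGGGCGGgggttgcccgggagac
Nop2: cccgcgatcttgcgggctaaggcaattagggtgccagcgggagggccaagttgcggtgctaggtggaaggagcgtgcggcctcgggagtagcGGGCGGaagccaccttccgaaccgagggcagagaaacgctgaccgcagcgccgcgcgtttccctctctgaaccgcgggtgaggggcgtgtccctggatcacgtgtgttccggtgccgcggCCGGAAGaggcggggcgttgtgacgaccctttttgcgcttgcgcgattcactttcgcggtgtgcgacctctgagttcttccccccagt
The Chd4 window held 3 GC boxes, 1 CCAAT box and 17 CpG, and the Nop2 window 1 GC box, 1 ETS match and 35 CpG, with no bases shared between matches.

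Of the 47 genes, 38 had a promoter in the RefSeq table. A GC box was found in 29 of these 38 (76.3%, beside 35.9% of 27025 promoters in the table) and an ETS match in 14 (36.8%, beside 9.12%). The CCAAT box was found in 15 (39.5%, beside 37.9%) and the TATA box in 6 (15.8%, beside 14.2%). The median number of CpG was 23.5 in the 38 promoters and 7 in all promoters of the table. These are matches of letters in a fixed window of promoters of expressed genes, not sites of binding. The 27025 promoters were not limited to expressed genes, so the gaps cannot be read as a trait of the region.

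Foxp1, a forkhead repressor, was the other gene above the mark in neither line. Its levels were 26.2 and 32.9 RPM in GSCLC_1, 28.1 and 34.2 in GSCLC_2, 30.2 and 35.6 in GSCLC_3 and 37.6 and 45.5 in GSCLC_4, against 37.2 and 29.1 in GSC_1 and 36.9 and 39.0 in GSC_2. In GSCLC_2 replicate 1 lay below the GSC range and replicate 2 inside it, and in GSCLC_4 replicate 1 lay inside and replicate 2 above it. Its shift of 0.22 in GSCLC_4 ranged from 0.09 to 0.36 over the settings and passed the mark without GSC_1 replicate 1, without GSCLC_4 replicate 1 and without the line GSC_2. The difference of GSCLC_4 from GSCLC_2 was 0.41 ± 0.22 (SE, limma adjusted p = 0.385).

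**Figure D4:**
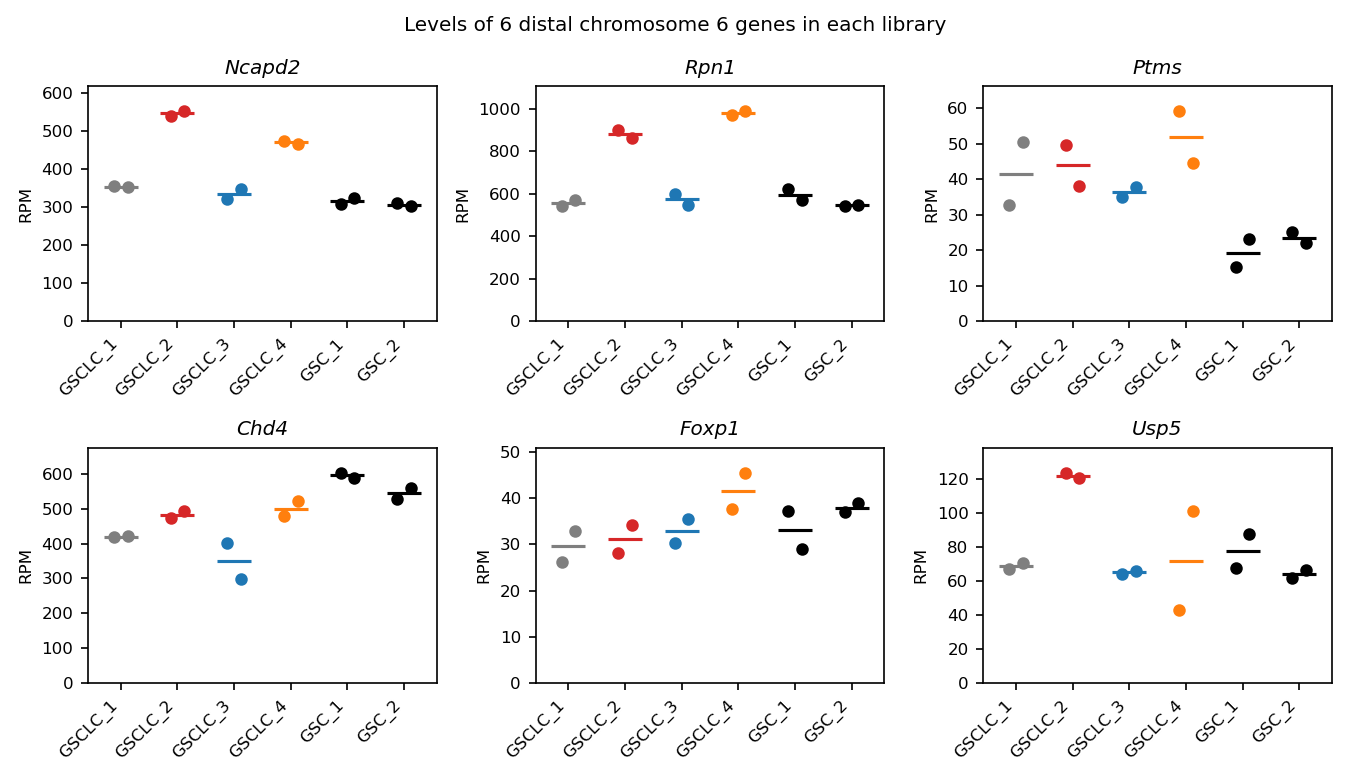
RPM of 6 distal chromosome 6 genes in each library, with 2 points per line and a bar at their mean, for GSCLC_1 to GSCLC_4 followed by GSC_1 and GSC_2. Ncapd2 and Rpn1 stand above all other lines in GSCLC_2 and GSCLC_4, Ptms in all GSCLC lines; Chd4 lies below the GSC lines in every GSCLC line, Foxp1 overlaps them in every line, and the 2 GSCLC_4 libraries of Usp5 lie apart at 42.6 and 101 RPM.

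The 10 genes above the mark only in GSCLC_2 were Dctn1, Rab7, Mcm2, Vhl, Rad52, Phb2, Usp5, Cops7a, Mrpl51 and Rad51ap1. Several of them rested on 1 library of GSCLC_4: replicate 2 alone lay above the mark for Dctn1, Rab7, Vhl, Phb2, Usp5 and Cops7a, and also for Foxp1. Below the mark in both GSCLC_4 libraries were 5 genes, Mcm2, Rad52, Chd4, Mrpl51 and Rad51ap1.

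Vhl, the substrate receptor of the ubiquitin ligase that marks HIF-alpha for degradation, had the widest gap. It stood at 36.5 and 38.3 RPM in GSCLC_1, 43.9 and 58.7 in GSCLC_2, 37.9 and 34.0 in GSCLC_3 and 15.8 and 62.0 in GSCLC_4, against 44.3, 27.8, 41.8 and 49.0 RPM in the GSC libraries. GSCLC_4 thus held both the lowest and the highest of the 12 libraries, and its shift of -0.33 averages 2 unlike cultures. Usp5, a deubiquitinase that recycles free ubiquitin chains, stood at 67.1 and 70.7 RPM in GSCLC_1, 124 and 120 in GSCLC_2, 64.2 and 66.0 in GSCLC_3 and 42.6 and 101 in GSCLC_4, against 67.8, 87.6, 61.5 and 66.3 RPM in the GSC libraries. Its shift was 0.79 in GSCLC_2 and -0.09 in GSCLC_4.

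Mcm2, a subunit of the replicative helicase, was low in both cultures of GSCLC_4 relative to GSCLC_2. It stood at 532 and 630 RPM in GSCLC_1, 846 and 868 in GSCLC_2, 629 and 497 in GSCLC_3 and 674 and 707 in GSCLC_4, against 644 and 654 in GSC_1 and 522 and 530 in GSC_2. The GSCLC_4 libraries lay above all GSC libraries, with a shift of 0.24, but the 2 GSC lines themselves were 0.30 ± 0.13 apart (SE, GSC_2 lower, limma adjusted p = 0.698). Mrpl51, a protein of the mitochondrial ribosome, stood at 171 and 247 RPM in GSCLC_1, 287 and 323 in GSCLC_2, 208 and 195 in GSCLC_3 and 233 and 256 in GSCLC_4, against 180, 232, 213 and 233 RPM in the GSC libraries. The GSCLC_2 libraries were clear of the GSC range, and those of GSCLC_4 lay at and above its upper end.

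Phb2, a prohibitin of the inner mitochondrial membrane, and Emg1, a methyltransferase needed for the small ribosomal subunit, start close together on opposite strands, so their promoter windows overlap. They are printed because the pair shares this stretch and one of them passed the mark in GSCLC_4. The windows lie at chr6:124712039-124712338 (plus strand, Phb2) and chr6:124712129-124712428 (minus strand, Emg1), with capitals as above.
Phb2: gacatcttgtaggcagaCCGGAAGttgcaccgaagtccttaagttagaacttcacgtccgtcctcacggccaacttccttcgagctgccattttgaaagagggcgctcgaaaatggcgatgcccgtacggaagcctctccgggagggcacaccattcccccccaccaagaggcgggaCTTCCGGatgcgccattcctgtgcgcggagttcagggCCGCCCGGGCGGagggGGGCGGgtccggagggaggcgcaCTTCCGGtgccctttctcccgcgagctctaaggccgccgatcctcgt
Emg1: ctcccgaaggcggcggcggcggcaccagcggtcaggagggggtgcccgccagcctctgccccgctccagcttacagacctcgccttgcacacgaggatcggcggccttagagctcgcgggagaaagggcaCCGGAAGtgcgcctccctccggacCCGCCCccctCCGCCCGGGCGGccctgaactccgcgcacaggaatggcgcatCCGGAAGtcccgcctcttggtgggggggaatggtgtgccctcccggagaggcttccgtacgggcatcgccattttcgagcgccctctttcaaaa
Phb2 had shifts of 0.69 in GSCLC_2 and 0.21 in GSCLC_4, and Emg1 of 0.78 in GSCLC_2 and 0.53 in GSCLC_4. In GSCLC_4 the libraries of Phb2 lay at 509 and 701 RPM, against 481, 528, 551 and 505 RPM in the GSC libraries, so that replicate 1 was inside the GSC range and replicate 2 above it.

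The 3 genes above the mark only in GSCLC_4 were Mbd4, Kdm5a and Bid. Mbd4, which removes thymine and uracil from mismatches at CpG, stood at 13.4 and 9.93 RPM in GSCLC_1, 13.8 and 17.0 in GSCLC_2, 8.20 and 8.09 in GSCLC_3 and 23.0 and 16.2 in GSCLC_4, against 13.4, 13.8, 14.3 and 11.2 RPM in the GSC libraries. The GSCLC_4 libraries lay above and the GSCLC_3 libraries below the whole GSC range. Kdm5a, an H3K4 demethylase, stood at 112 and 113 RPM in GSCLC_1, 121 and 127 in GSCLC_2, 89.9 and 93.0 in GSCLC_3 and 163 and 167 in GSCLC_4, against 113, 89.4, 104 and 114 RPM in the GSC libraries. For Kdm5a the libraries of GSCLC_2 also lay above all GSC libraries, by less, with a shift of 0.24. Bid, a pro-apoptotic BCL2 family member, missed the mark narrowly in GSCLC_2, with a shift of 0.286 against a mark of 0.292.

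Among genes of DNA repair and replication, 7 of 8 lay above the mark in GSCLC_2 and 5 of 8 in GSCLC_4, with 0 of 8 in GSCLC_1 and in GSCLC_3. Ncapd2, a subunit of condensin, was an even example, at 355 and 353 RPM in GSCLC_1, 541 and 552 in GSCLC_2, 321 and 349 in GSCLC_3 and 475 and 467 in GSCLC_4, against 308, 324, 310 and 302 RPM in the GSC libraries. Fancd2, a ubiquitinated protein of the Fanconi anaemia pathway, stood at 35.7 and 36.2 RPM in GSCLC_1, 74.7 and 65.7 in GSCLC_2, 41.3 and 39.6 in GSCLC_3 and 38.1 and 66.6 in GSCLC_4, against 43.0, 39.4, 30.3 and 41.1 RPM in the GSC libraries. Its replicates in GSCLC_4 fell on both sides of the GSC maximum. Ruvbl1, an AAA+ ATPase of several remodelling complexes, shifted by 0.77 in GSCLC_2 and 0.80 in GSCLC_4, and Rad18, a ubiquitin ligase of PCNA, by 0.61 and 0.69 in the same lines.

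All 7 genes of RNA processing and ribosome assembly lay above the mark in GSCLC_2 and in GSCLC_4, with medians of 0.55 and 0.50. Snrpg, a core protein of the spliceosomal snRNPs and the gene with the highest RPM, stood at 1088 and 1092 RPM in GSCLC_1, 1458 and 1655 in GSCLC_2, 959 and 1239 in GSCLC_3 and 1437 and 1027 in GSCLC_4, against 979, 990, 923 and 948 RPM in the GSC libraries. In GSCLC_4 its replicate 2 lay below GSCLC_1, and its shift was 0.34 against 0.69 in GSCLC_2. Strap, a component of the SMN complex, shifted by 0.50 in GSCLC_2 and 0.94 in GSCLC_4, and Nop2 by 0.48 in both.

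Of the 10 genes of chromatin and transcription, 7 lay above the mark in GSCLC_2 and 8 in GSCLC_4. Ing4, a reader of H3K4 methylation in the HBO1 acetyltransferase complex, stood at 44.2 and 52.5 RPM in GSCLC_1, 59.4 and 68.9 in GSCLC_2, 28.3 and 37.5 in GSCLC_3 and 96.9 and 91.0 in GSCLC_4, against 49.2, 38.5, 43.6 and 53.1 RPM in the GSC libraries. It had the order GSCLC_4, GSCLC_2, GSCLC_1, GSCLC_3. Mlf2, which is related to the myeloid leukaemia factor MLF1, stood at 157 and 196 RPM in GSCLC_1, 174 and 180 in GSCLC_2, 125 and 129 in GSCLC_3 and 177 and 190 in GSCLC_4, against 122, 123, 139 and 144 RPM in the GSC libraries. It was above the mark in every GSCLC line but GSCLC_3. Med21, a Mediator subunit, shifted by 0.58 in GSCLC_2 and 0.50 in GSCLC_4, and Etv6, an ETS repressor, by 0.61 and 0.62 in the same lines.

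The 6 mitochondrial genes had medians of 0.52 in GSCLC_2 and 0.46 in GSCLC_4, with 5 and 4 above the mark. Mthfd2, a folate enzyme of mitochondria, shifted by 0.50 in GSCLC_2 and 0.81 in GSCLC_4, and Dguok, the mitochondrial deoxyguanosine kinase, by 0.54 and 0.44 in the same lines. Among the 7 genes of the secretory pathway and trafficking, all 7 lay above the mark in GSCLC_2 and 5 in GSCLC_4. Rpn1, a subunit of the oligosaccharyltransferase, stood at 542 and 572 RPM in GSCLC_1, 902 and 866 in GSCLC_2, 598 and 550 in GSCLC_3 and 974 and 990 in GSCLC_4, against 623, 570, 543 and 549 RPM in the GSC libraries. Its libraries in GSCLC_2 and GSCLC_4 were far from all others.

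Dctn1, the large subunit of dynactin, and Atp6v1e1, a subunit of the proton pump V-ATPase, had negative shifts in GSCLC_1 and GSCLC_3, at -0.36 and -0.14 for Dctn1 and -0.28 and -0.72 for Atp6v1e1. Dctn1 stood at 27.4 and 25.8 RPM in GSCLC_1, 51.9 and 42.3 in GSCLC_2, 31.4 and 30.7 in GSCLC_3 and 34.6 and 49.5 in GSCLC_4, against 30.6, 33.2, 41.4 and 33.4 RPM in the GSC libraries. Atp6v1e1 stood at 102 and 130 RPM in GSCLC_1, 177 and 173 in GSCLC_2, 69.3 and 104 in GSCLC_3 and 211 and 187 in GSCLC_4, against 132, 119, 159 and 154 RPM in the GSC libraries. For Atp6v1e1 the shift was 0.32 in GSCLC_2 and 0.50 in GSCLC_4. Golt1b, a Golgi transport protein, stood at 31.1 and 35.5 RPM in GSCLC_1, 50.9 and 35.5 in GSCLC_2, 31.9 and 27.5 in GSCLC_3 and 53.1 and 63.7 in GSCLC_4, against 31.3, 29.7, 22.6 and 31.1 RPM in the GSC libraries. Both libraries of GSCLC_2 and of GSCLC_4 lay above the GSC range.

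All 9 genes of signalling, protein turnover and metabolism lay above the mark in GSCLC_2 and 6 in GSCLC_4. Itpr1, the IP3 receptor that releases calcium from the endoplasmic reticulum, stood at 75.3 and 56.3 RPM in GSCLC_1, 84.5 and 84.0 in GSCLC_2, 60.2 and 49.9 in GSCLC_3 and 98.4 and 109 in GSCLC_4, against 55.4, 40.7, 53.2 and 50.8 RPM in the GSC libraries. Its shift of 1.04 in GSCLC_4 corresponds to 2.06-fold. Lrp6, a co-receptor for WNT, stood at 26.8 and 16.3 RPM in GSCLC_1, 34.6 and 32.9 in GSCLC_2, 22.6 and 21.6 in GSCLC_3 and 46.8 and 36.6 in GSCLC_4, against 25.1, 30.4, 22.6 and 24.5 RPM in the GSC libraries. Its libraries in GSCLC_2 and GSCLC_4 were all above the GSC range. Cmas, which activates sialic acid, stood at 128 and 155 RPM in GSCLC_1, 174 and 177 in GSCLC_2, 142 and 144 in GSCLC_3 and 256 and 215 in GSCLC_4, against 135, 111, 107 and 120 RPM in the GSC libraries. Both libraries of GSCLC_2, GSCLC_3 and GSCLC_4 lay above that range. Dera, a deoxyribose-phosphate aldolase, had its lowest level in GSCLC_3: it stood at 15.1 and 15.6 RPM in GSCLC_1, 28.6 and 35.5 in GSCLC_2, 13.0 and 5.66 in GSCLC_3 and 31.8 and 21.8 in GSCLC_4, against 19.2, 19.4, 23.9 and 11.2 RPM in the GSC libraries. The shift of Dera in GSCLC_3, -0.96, was the lowest of the 47 in any line.

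Size of the shift did not follow level in a simple way. With the 47 genes split by their mean level in the GSC lines, the 16 lowest had medians of 0.58 in GSCLC_2 and 0.58 in GSCLC_4, the 15 middle ones 0.50 and 0.50, and the 16 highest 0.57 and 0.50. Levels of 8 genes are uncertain because their 300-base 3′ end overlapped an exon of another gene or had a near-identical copy elsewhere: Mrpl19, Rab7, Ruvbl1, Sec61a1, Fancd2, Lpcat3, Emg1 and Ing4.

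Subunits of complexes offered a comparison of distal chromosome 6 genes with partners on other chromosomes. For 19 of the 47 genes, 78 partners with sufficient level were listed. The 19 genes had median shifts of -0.01 in GSCLC_1, 0.58 in GSCLC_2, -0.14 in GSCLC_3 and 0.50 in GSCLC_4, and their 78 partners 0.01, 0.05, -0.05 and 0.04 in the same order of lines. The gene stood above the median of its partners in 8 of 19 cases in GSCLC_1, 18 in GSCLC_2, 6 in GSCLC_3 and 16 in GSCLC_4. In GSCLC_2 the exception was Chd4, at -0.24 beside -0.01 for the 8 NuRD partners. In GSCLC_4 the 3 exceptions were Chd4, Phb2 and Vhl. The 19 genes come from a list selected on its rise and the partners do not, so that these counts are a description and largely follow from the selection.

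Mcm2 shifted by 0.55 in GSCLC_2 and 0.24 in GSCLC_4, and the median of Mcm3 to Mcm7, the other subunits of the helicase, by -0.09 and -0.06. Rpn1 shifted by 0.63 and 0.78 in those lines, and the median of 5 other subunits of the oligosaccharyltransferase by -0.08 and -0.12. Some partners had positive shifts too: Ruvbl2, the partner of Ruvbl1, shifted by 0.53 in GSCLC_2 and 0.44 in GSCLC_4, and Phb, the partner of Phb2, by 0.35 and 0.38. On chromosome 8 lie 5 of the partners, Mcm5, Gatad2a, Nup133, Dctn6 and Atp6v1b2.

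**Figure D5:**
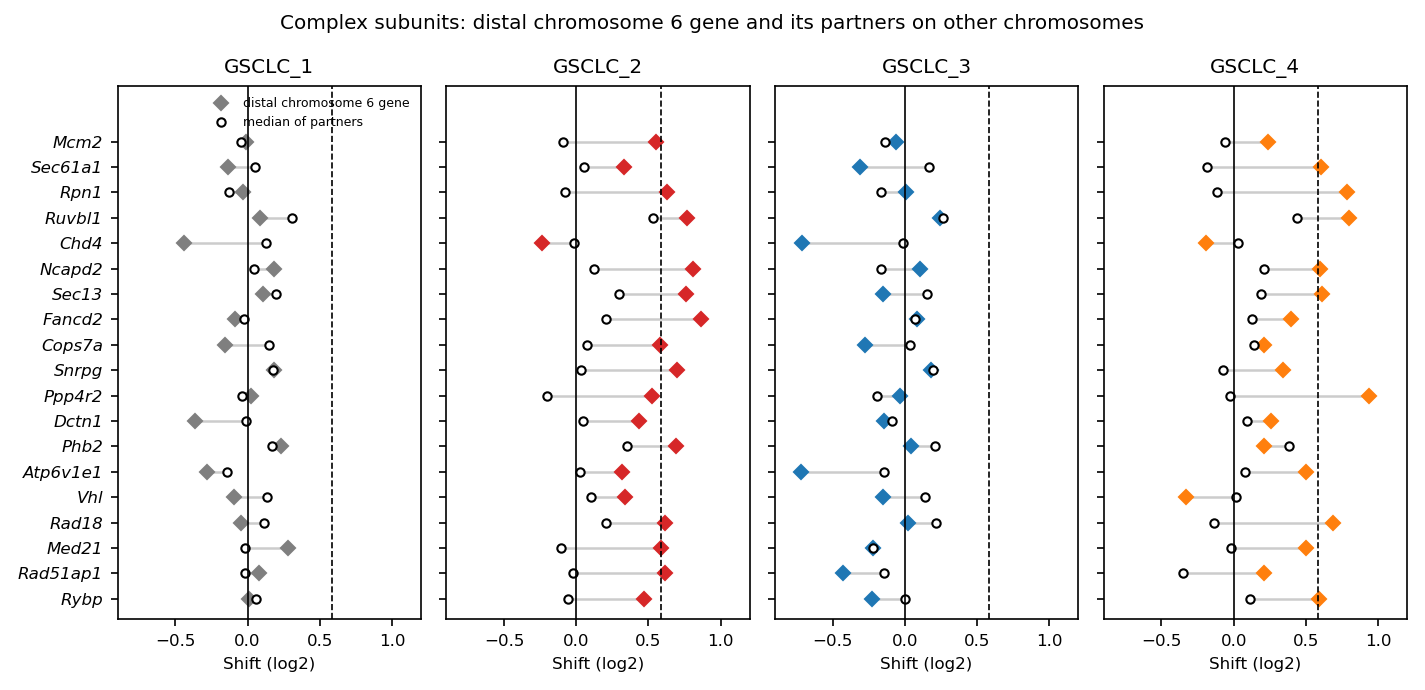
Shift of 19 distal chromosome 6 genes (diamonds) and the median shift of their complex partners on other chromosomes (open circles), in 4 panels for GSCLC_1 to GSCLC_4, with each pair joined by a line. The solid line marks no change and the dashed line 1.5-fold; the diamond lies right of its circle for 18 of 19 genes in GSCLC_2 and 16 of 19 in GSCLC_4.

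A further list of 25 genes known in stem cells, growth control and metabolism on distal chromosome 6 held 18 with sufficient level. Their median shifts were -0.08 in GSCLC_1, 0.43 in GSCLC_2, -0.11 in GSCLC_3 and 0.44 in GSCLC_4. Above the mark lay 6 in GSCLC_1, 12 in GSCLC_2, 2 in GSCLC_3 and 10 in GSCLC_4. Of all tested genes, 19.7%, 21.8%, 18.6% and 29.1% did so in the same order. Ret, the GDNF co-receptor on which these cells depend, shifted by -0.24 in GSCLC_2 and -0.11 in GSCLC_4. Bhlhe40, a repressor of the clock and of hypoxia responses, was lower in all 4 lines, at -0.89, -0.50, -2.45 and -1.51 in GSCLC_1 to GSCLC_4. Cdkn1b, the cell cycle inhibitor p27, was at 8.42 RPM on average and shifted by 1.105, 1.39, 1.09 and 2.21 in the same order. Its mean was 3.26 RPM in the GSC lines and 7.99, 9.84, 7.85 and 18.3 RPM in GSCLC_1 to GSCLC_4. Cdkn1b thus reached 5 RPM on average only through the GSCLC lines, as did Ldhb, at 2.41 RPM in the GSC lines. Both lay above the mark in all 4 GSCLC lines, so the counts of this list partly follow from the limit on level.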

How the data were processed

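SC3-seq libraries of 6 mouse lines, 2 cultures each, were analysed from a table deposited by the authors, whose unit is RPM, for 26219 genes. The build mm10 (GRCm38) and cutadapt 1.3, TopHat 1.4.1 and Cufflinks 2.2.0 are named per the submitters' processing notes; the sources used here do not give their settings, or whether strand was used, and without strand a gene and its antisense partner cannot be told apart. RPM sums were 999885 to 999962, and steps in low values, whole within 0.1 for 99.8% to 99.9%, implied the read totals; the recovery was incomplete, so no count test was run. Read numbers speak for counting error only, since amplified reads are not independent molecules and the labels name no molecular identifiers. Gene positions came from RefSeq for 24615 genes (93.9%). Values were taken as log2(RPM + 1), which understates changes of low genes.

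The 11788 genes that reached 5 RPM in 2 or more libraries were tested with limma 3.58.1 in R 4.3.3, with a mean-variance trend, two-sided, adjusted by Benjamini-Hochberg over all of them. GSCLC against GSC and condition 2 against 1 used line means; single lines used single libraries, so those p-values measure only the spread between cultures. The script was tested on simulated data. 3′ ends were searched for copies with blastn 2.17.0, at 95% identity over 100 bases. Genes named with every library's values are, per GSCLC line, the 4 largest and 4 smallest shifts, the highest and lowest RPM, and those on one side of the mark in all 4 lines; Rpn1, Mcm2 and Phb2 were added after their values were seen. The members and lists were chosen with earlier results of these data known. Alternatives covered the pseudocount, filters, scaling, variance prior, mark, replicate block and left-out libraries and lines.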

Additional observations from a re-analysis of the deposited data

Results flagged for a closer look

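Usp5 had a shift of 0.79 in GSCLC_2, far above its means in the other 3 GSCLC lines, although 1 library of GSCLC_4 lay at 0.52 and the other at -0.71. Mlf2 had a shift of -0.051 in GSCLC_3, far below its values in the other 3. All 47 genes were screened in this way. Chance alone places about 1 in 20 groups of 4 values this far apart.

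Pairs of GSCLC lines differed from each other in their shift from the same GSC lines, by limma with Benjamini-Hochberg adjustment. The list was selected on a rise in some GSCLC lines. Calls between a raised line and another largely follow from that selection and are a description only. GSCLC_2 was higher than GSCLC_1 for 7 of the 47 genes (1.21% of all tested genes in either direction), among them Ncapd2, by 0.62 on the log2 scale. That count was 0 without GSCLC_1 replicate 1 and without GSCLC_2 replicate 1. GSCLC_4 was higher than GSCLC_1 for 13 (2.45%), or 1 without GSCLC_1 replicate 1, among them Atp6v1e1 by 0.78, Ing4 by 0.95, Lrp6 by 0.95 and Cmas by 0.74. GSCLC_3 was lower than GSCLC_2 for 25 (5.71%), or 11 without either GSCLC_2 library. The log2 differences of GSCLC_3 from GSCLC_2 were -1.04 for Atp6v1e1, -0.90 for Usp5, -0.95 for Ing4, -0.47 for Chd4, -0.70 for Ncapd2, -0.60 for Mrpl51 and -1.77 for Dera.

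GSCLC_4 was higher than GSCLC_3 for 29 genes (11.4%), or 15 without GSCLC_3 replicate 2. The differences on the log2 scale were 0.90 for Itpr1, 1.15 for Mbd4, 0.84 for Kdm5a, 1.22 for Atp6v1e1, 0.52 for Mlf2, 1.501 for Ing4 and 0.52 for Chd4. They were 0.49 for Ncapd2, 0.88 for Lrp6, 1.501 for Dera, 0.95 for Golt1b and 0.71 for Cmas. These pairs were compared after the lines' values had been seen. Without each library named for these pairs, calls over all tested genes fell too.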

How the results depend on the processing

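The split of the lines held in every setting tried, though GSCLC_2 and GSCLC_4 changed order in some: medians in GSCLC_2 and GSCLC_4 stayed at 0.47 or more, and those of GSCLC_1 and GSCLC_3 at 0.08 or less. Of 3572 alternative values of single shifts, 0 reversed a called direction, 501 moved by more than the replicate spread and 3071 did not. Where a GSCLC library was left out, no value could move by more than that spread. The 3071 therefore include values fixed in advance and do not measure stability. GSCLC over GSC lines gave 2 calls when centred on genes outside chromosome 6, 0 with no filter on tested genes and 3 with a replicate block, and 0 without GSC_1 or GSC_2. GSCLC_1 gave 2 with a pseudocount of 5, with centring and with the replicate block, and 0 with no filter and without GSC_1. GSCLC_2 gave 18 with no filter and 12 without GSC_2, and GSCLC_3 0 with no filter, 0 without GSC_1 and 1 without GSC_2. With no filter, GSCLC_2 over GSCLC_1 gave 3, GSCLC_4 over GSCLC_1 4 and GSCLC_3 under GSCLC_2 15; centring gave 18 for GSCLC_4 over GSCLC_3. Medians were, in GSCLC_1, 0.077 without GSC_1; in GSCLC_2, 0.51 with a pseudocount of 5, 0.57 centred and 0.57 without GSC_1; in GSCLC_3, -0.014 centred, -0.035 with quantile normalisation and -0.067 without GSC_2; in GSCLC_4, 0.49 with a pseudocount of 5, 0.47 centred, 0.50 with quantile normalisation, 0.58 without GSC_1 and 0.49 without GSC_2. Genes above the mark in GSCLC_1 were 10 without GSC_1 and 9 at a lower mark, and in GSCLC_3 8 centred, 7 with quantile normalisation, 7 without GSC_1 and 8 at that mark. Leaving out 1 library gave 1 to 1 calls for GSCLC over GSC, 0 to 2 for GSCLC_1, 8 to 29 for GSCLC_2, 0 to 2 for GSCLC_3, 18 to 26 for GSCLC_4, and for the pairs 0 to 9 (GSCLC_2 over GSCLC_1), 1 to 14 (GSCLC_4 over GSCLC_1), 11 to 27 (GSCLC_3 under GSCLC_2), 0 to 4 (GSCLC_4 and GSCLC_2) and 15 to 30 (GSCLC_4 over GSCLC_3), and 0 for conditions, for GSC_2 against GSC_1 and for GSCLC_3 against GSCLC_1. Genes above the mark ran from 5 to 9, 39 to 44, 3 to 6 and 33 to 39 in GSCLC_1 to GSCLC_4, and medians from 0.0027 to 0.067, 0.50 to 0.58, -0.12 to -0.07 and 0.53 to 0.55. Replicate numbers did not pair libraries, since deviations correlated at -0.12 to 0.11. A count test with edgeR was not run. The cause of these changes was not tested.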
